A study of Mus musculus with 16 samples.

Results

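The genes described here encode the chemokines and their receptors. They are the rows of the deposited gene table whose names begin with Ccl, Cxcl, Ccr or Cxcr and a number, or are Cx3cl1, Cx3cr1, Xcl1 or Xcr1, and whose counts summed over the 16 libraries reached a minimum of 10. Of 64 rows with such names that are reported, 46 met this minimum, out of 23018 genes of any kind that did. The 46 comprised 17 CC ligands, 10 CXC ligands, the CX3C ligand Cx3cl1 and the XC ligand Xcl1, and 17 receptors. Ccr1l1 and Cxcr1, with 10 counts each, were just inside the minimum, while Ccr8 with 6 counts and Ccl1 with 3 counts were just outside it. Of the 18 rows below it, 12 held no count at all. They included further copies of Ccl19 and Ccl27a, and all rows of Ccl21a, Ccl21b and Ccl21c held at most 1 count.

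Chemokines are small secreted proteins that bind G protein-coupled receptors on leukocytes and other cells and direct their movement along a gradient. CC and CXC ligands are named for the spacing of their first cysteines. As background, CC ligands such as Ccl2 act mainly on monocytes, macrophages and lymphocytes, and CXC ligands such as Cxcl1, Cxcl2 and Cxcl5 act on neutrophils through Cxcr2. In the liver, chemokines are made by hepatocytes, Kupffer cells (the resident macrophages), stellate cells, endothelial cells and cholangiocytes, and they are known for the recruitment of blood monocytes through Ccr2 after injury or resection. Because whole liver was sequenced, a lower level of a gene may reflect fewer cells of a type or less RNA per cell, and these cannot be told apart.

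Livers of male mice were sampled in 4 groups of 4 libraries each: HIRA KO livers and their controls at 2 times, before liver regeneration and after it. HIRA belongs to a complex that deposits the replacement histone H3.3. The Hira gene was deleted in adult hepatocytes by AAV8 vectors injected into the blood at 6 months of age, with Cre or saCas9 driven by the Tbg promoter, which is active in hepatocytes. Each group held 2 libraries from each of 2 approaches: HIRA fl/fl mice (C57BL/6) given AAV8 Tbg-Cre, with wildtype mice given the same vector as controls, or wildtype mice given AAV8 Tbg-saCas9 with a U6-driven guide against HIRA, with a guide against Rosa26 as control. All mice, controls included, thus received an AAV8 vector. The lobes removed at partial hepatectomy 4 weeks after injection were the samples before regeneration, and the liver remaining 5 days later, taken from the same mice, was the sample after regeneration. Time, lobe and way of collection therefore differed together between before and after, and their parts cannot be told apart. The deposited columns carried a group and a running number from 1 to 4, which no label ties to a mouse or an approach, so these numbers only name libraries, and the p-values measure the spread between libraries.

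Library totals ranged from 15103059 to 21738619 counts, and the 46 genes took between 0.0406% and 0.0638% of them. Hira itself averaged 5.77 CPM, the count scaled to a common library size, ± 0.45 (SD, n = 4) in control and 3.54 ± 0.57 in HIRA KO livers before regeneration, and 5.67 ± 0.55 against 3.51 ± 0.71 after it, with no overlap between genotypes. The summed CPM of 8 hepatocyte markers lay between 103692 and 161770 in every library, 76.0% to 87.8% of it from Alb. HIRA KO libraries 1 and 2 stood apart from all the others at both times: on the second principal component of log2(CPM + 1) they lay between -47.4 and -36.2, and the other 12 libraries between -1.14 and 31.2. Before regeneration 4 of the 8 hepatocyte markers were higher in that pair than in the other 6 libraries (Alb, Ttr, Cps1 and Tat) and 4 were lower (Apoa1, Hnf4a, Asgr1 and Cyp2e1), with Asgr1 at 229.5 and 247 CPM against 388 to 511 CPM. Counts of calls, and results that rest on these 4 libraries, are therefore given with and without them, a setting that leaves 2 HIRA KO libraries at each time.

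The stretches upstream of 5 of these genes, picked for their expression results, are shown here, and no result rests on the sequences. Ccl6 and Cxcl14 rose in both genotypes, Ccl9 lies next to Ccl6 and differed between HIRA KO libraries, and Cxcl1 and Cxcl2 are neutrophil chemokines whose levels varied widely within groups. Each sequence is RefSeq's, of build GRCm38.p6, read 5′ to 3′ on the strand of the gene, and runs for 200 bases. The stretches end just before the start of the gene in RefSeq, except those of Cxcl1 and Cxcl2, which end 4 and 28 bases short of it, before the start that GENCODE gives. Capitals mark matches to the 5 motifs searched, on both strands: NF-kB (GGGNNNTTCC), AP-1 (TGANTCA), PU.1 (AGGAAGT), the STAT motif GAS (TTCNNNGAA) and the IRF motif ISRE (GAAANNGAAA). The stretch of Ccl6 is chr11:83593088-83593287 on the minus strand, and that of Ccl9 is chr11:83578637-83578836 on the minus strand. That of Cxcl14 is chr13:56296552-56296751 on the minus strand, and those of Cxcl1 and Cxcl2 are chr5:90891041-90891240 and chr5:90903671-90903870 on the plus strand.
Ccl6: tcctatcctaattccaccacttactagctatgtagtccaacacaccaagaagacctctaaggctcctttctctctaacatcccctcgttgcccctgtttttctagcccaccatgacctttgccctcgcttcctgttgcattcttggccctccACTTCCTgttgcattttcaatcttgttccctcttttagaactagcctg
Ccl9: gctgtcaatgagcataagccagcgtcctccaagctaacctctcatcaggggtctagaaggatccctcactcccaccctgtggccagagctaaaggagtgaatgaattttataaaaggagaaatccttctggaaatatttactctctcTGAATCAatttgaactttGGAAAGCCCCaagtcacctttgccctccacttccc
Cxcl14: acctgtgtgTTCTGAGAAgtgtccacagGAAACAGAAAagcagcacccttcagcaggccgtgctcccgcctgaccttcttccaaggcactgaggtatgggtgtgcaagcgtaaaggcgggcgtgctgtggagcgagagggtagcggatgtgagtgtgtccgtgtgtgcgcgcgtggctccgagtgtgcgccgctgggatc
Cxcl1: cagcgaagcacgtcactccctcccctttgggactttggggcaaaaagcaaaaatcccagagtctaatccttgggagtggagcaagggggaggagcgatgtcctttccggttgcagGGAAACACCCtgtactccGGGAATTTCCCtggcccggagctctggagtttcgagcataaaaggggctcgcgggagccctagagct
Cxcl2: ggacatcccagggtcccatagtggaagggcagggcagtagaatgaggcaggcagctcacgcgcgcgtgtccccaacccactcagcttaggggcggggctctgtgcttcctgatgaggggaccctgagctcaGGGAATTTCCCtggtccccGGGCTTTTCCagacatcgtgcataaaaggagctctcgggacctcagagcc

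Cxcl1 and Cxcl2 each held 2 stretches of NF-kB letters, 1 of which, GGGAATTTCCC, was the same in both genes and matched on both strands. Ccl9 held 1 NF-kB and 1 AP-1 match, Ccl6 held 1 PU.1 match, and Cxcl14 held 1 GAS and 1 ISRE match. RefSeq windows of 300 bases, from 250 before to 50 after the start, were at hand for 33 of the 46 genes, in 37 windows. The NF-kB letters were in 6 of these 37 windows (16.2%), against 5.56% of all 32851 windows, and belonged to Ccl9, Ccl20, Ccr3, Ccr6, Cxcl1 and Cxcl2. AP-1 letters were in 18.9% of the windows of these genes against 7.81% of all, PU.1 letters in 24.3% against 9.35%, GAS letters in 8.11% against 8.3%, and ISRE letters in 5.41% against 3.44%. No match to one motif overlapped a match to another. A match describes letters only, and windows of genes outside the table, Ccl2, Ccl24 and Cxcl5 among them, were not searched.

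Levels between genes were compared on deposited FPKM, which accounts for transcript length. Cxcl12, the ligand of Cxcr4, was the highest of the 46 genes with a mean of 112 FPKM and held 62.7% of all their counts. Its lowest and highest libraries were at 85.5 and 157 FPKM. Ccl9 (a CC ligand of Ccr1, mean 38.6 FPKM), Cxcl1 (21.3 FPKM), Ccl6 (15.0 FPKM) and Cxcl9 (9.53 FPKM), the interferon-induced ligand of Cxcr3, followed, and these 5 ligands together held 90.0% of the counts. Neighbours in this order overlapped in their ranges: Ccl9 spanned 10.4 to 107 FPKM, Cxcl1 6.14 to 60.2 FPKM, Ccl6 4.57 to 30.4 FPKM and Cxcl9 5.14 to 14.8 FPKM. Ccl27a (6.91 FPKM), Ccl25 (5.29 FPKM) and Cxcl16 (4.47 FPKM), the ligands of Ccr10, Ccr9 and Cxcr6, came next.

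Receptors were lower, and the 17 of them held 2.33% of the counts. Cxcr4 (mean 1.08 FPKM) was at or above 1 FPKM on average, ahead of Ccr2 (0.905 FPKM), Cx3cr1 (0.457 FPKM) and Cxcr3 (0.306 FPKM). The ranges of these receptors overlapped, from 0.263 to 2.96 FPKM for Cxcr4 and from 0.180 to 3.15 FPKM for Ccr2. Of the 46 genes, 26 had a mean of at least 0.5 CPM, and 30 had a count in every library. The deposited FPKM and counts disagree for Ccl19, a ligand of Ccr7, at 0.759 FPKM on average but 16 counts in total, and its copies in the genome can share reads, so no result is drawn from it. Reads of Cxcr6, which lies inside Fyco1 on the opposite strand, of Cx3cr1, whose annotated span crosses Wdr48, Gorasp1 and Csrnp1, and of Ccr9, which crosses Lztfl1, may likewise be mixed with those of their neighbours, since whether strand was used in counting is not stated.

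With all libraries, few of these genes were called with regeneration in either genotype, at shares near those of all genes. In control livers 5 of 46 passed the test, 4 higher and 1 lower after regeneration, where 10.2% of all 23018 genes were called in either direction. In HIRA KO livers 7 of 46 passed, 5 higher and 2 lower, where 12.0% of all genes were called. Calls are those of edgeR's quasi-likelihood test with an adjusted p (Benjamini-Hochberg, over all genes) below 0.05, and all adjusted p below are from it unless DESeq2 is named. Ccl6, Cxcl14 and Ccr2 were called higher in both genotypes, 3 of 46 beside 3.51% of all genes, a larger share that rests on 3 genes. The median log2 fold change of the 46 was 0.38 in control and 0.24 in HIRA KO livers, beside 0.0029 and 0.02 over all genes. DESeq2 called 6 members in control and 8 in HIRA KO livers, beside 14.3% and 15.9% of all genes. Without HIRA KO libraries 1 and 2, edgeR called 7 of 46 in control and 9 of 46 in HIRA KO livers, beside 16.4% and 9.54% of all genes. In that setting the share in HIRA KO livers was above that of all genes.

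Among CC ligands, Ccl6, a chemokine of myeloid cells, had the smallest p-value in both genotypes. The level of Ccl6 before regeneration was 7.16, 9.90, 8.30 and 5.50 CPM in control and 6.30, 5.67, 6.25 and 6.33 CPM in HIRA KO libraries 1 to 4, and after regeneration it was 27.9, 26.7, 30.8 and 24.0 CPM and 34.2, 27.2, 28.0 and 29.7 CPM. The 8 libraries after regeneration all lay above the 8 before it. The log2 fold change was 1.82 (SE 0.15, adjusted p = 3.47e-06) in control livers and 2.28 (SE 0.15, adjusted p = 2.72e-07) in HIRA KO livers, that is 3.54-fold and 4.85-fold higher. The call was kept with each of the 8 libraries left out in turn in either genotype, and without HIRA KO libraries 1 and 2 together, where the HIRA KO value was 2.20 (SE 0.21, adjusted p = 1.88e-05).

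Ccl9 lies next to Ccl6 on chromosome 11 and, like it, is a ligand of Ccr1. Ccl9 stood at 60.6, 44.5, 62.4 and 44.2 CPM in control and 29.3, 31.0, 36.4 and 44.0 CPM in HIRA KO libraries 1 to 4 before regeneration, and at 90.9, 121, 199 and 202 CPM and 21.8, 30.1, 180 and 90.6 CPM after it. All control libraries after regeneration were above all control libraries before it, whereas in HIRA KO livers libraries 1 and 2 after regeneration each lay below at least 3 of the 4 before it. Its log2 fold change was 1.53 (SE 0.54, adjusted p = 0.0926) in control livers and 1.19 (SE 0.53, adjusted p = 0.168) in HIRA KO livers, and neither passed the test in edgeR, while DESeq2 called the first. Without HIRA KO libraries 1 and 2 both comparisons did, with log2 fold changes of 1.53 (SE 0.31, adjusted p = 0.0103) in control and 1.75 (SE 0.45, adjusted p = 0.0429) in HIRA KO livers. The control libraries are the same in that setting, and the spread estimated over all groups is not.

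Ccl24, known as eotaxin 2 and a ligand of Ccr3 on eosinophils, was called in HIRA KO livers. Before regeneration Ccl24 measured 1.34, 2.04, 2.86 and 0.355 CPM in control and 0.529, 0.734, 0.612 and 1.38 CPM in HIRA KO libraries 1 to 4, and afterwards 3.19, 3.61, 4.52 and 3.89 CPM and 3.72, 4.13, 4.22 and 4.67 CPM. After regeneration all 8 libraries lay above all 8 before it. Ccl24 gave a log2 fold change of 2.36 (SE 0.42, adjusted p = 0.00182) in HIRA KO livers, and 1.20 (SE 0.39, adjusted p = 0.057) in control livers, where it missed the threshold in edgeR, was called by DESeq2, and was called by edgeR without control library 3 before regeneration (adjusted p = 0.0211). The difference between the genotypes, a log2 value of 1.16 (SE 0.56, adjusted p = 0.738), did not pass the test. The HIRA KO value without libraries 1 and 2 was 2.14 (SE 0.62, adjusted p = 0.0491).

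The CC ligands that fell were Ccl25 and Ccl27a, which direct lymphocytes to gut and skin. In libraries 1 to 4 Ccl25 was at 6.02, 7.15, 5.84 and 6.57 CPM in control and 7.46, 8.87, 7.34 and 7.77 CPM in HIRA KO livers before regeneration, and at 4.51, 4.93, 3.82 and 4.03 CPM and 7.21, 6.00, 4.32 and 5.23 CPM after it. Ccl25 was lower after regeneration in every library of a genotype than before, with a log2 fold change of -0.57 (SE 0.16, adjusted p = 0.0318) in control livers and -0.46 (SE 0.16, adjusted p = 0.0649) in HIRA KO livers, where it was not called. The level of Ccl27a before regeneration was 4.82, 4.46, 4.52 and 5.50 CPM in control and 4.71, 3.40, 5.30 and 6.51 CPM in HIRA KO libraries 1 to 4, and after regeneration it was 4.95, 2.75, 3.22 and 3.65 CPM and 2.95, 3.11, 3.37 and 2.95 CPM. Ccl27a was called in HIRA KO livers, at -0.69 (SE 0.21, adjusted p = 0.0387), and not in control livers, at -0.41 (SE 0.21, adjusted p = 0.244), where the libraries overlapped. Both calls were fragile: leaving out 1 library kept that of Ccl25 in 3 of 8 cases and that of Ccl27a in 2 of 8. Ccl25 was lost without control library 1, 2 or 4 before regeneration or 3 or 4 after it, with adjusted p between 0.0539 and 0.0956. Ccl27a was lost without HIRA KO library 3 or 4 before regeneration or any HIRA KO library after it, with adjusted p between 0.0661 and 0.158. With libraries 1 and 2 left out, the values in HIRA KO livers were -0.66 (SE 0.21, adjusted p = 0.0565) for Ccl25 and -0.90 (SE 0.27, adjusted p = 0.0432) for Ccl27a. Ccl25 was called in HIRA KO livers without library 1 after regeneration (adjusted p = 0.0249) and by DESeq2. Ccl25 shares 204 bases with Elavl1 on the opposite strand, and Ccl27a shares 8 bases with Il11ra1 on the opposite strand.

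The other 13 CC ligands that were measured did not pass the test in either genotype. For Ccl2, the main ligand of Ccr2, the log2 fold changes were 0.60 (SE 0.60, adjusted p = 0.62) and 0.83 (SE 0.58, adjusted p = 0.387) in control and HIRA KO livers. For Ccl7, another Ccr2 ligand, they were 1.57 (SE 0.54, adjusted p = 0.0747) and 0.77 (SE 0.48, adjusted p = 0.329), and the control comparison was called without control library 2 before regeneration (adjusted p = 0.0417). Ccl5, a T cell chemokine, gave -0.16 (SE 0.43, adjusted p = 0.884) and 0.91 (SE 0.42, adjusted p = 0.176). Without HIRA KO libraries 1 and 2, Ccl2 and Ccl5 passed the test in HIRA KO livers, with log2 fold changes of 1.74 (SE 0.49, adjusted p = 0.0322) and 2.40 (SE 0.49, adjusted p = 0.00602), and Ccl7 did in control livers, at 1.56 (SE 0.48, adjusted p = 0.0344), while in HIRA KO livers it gave 2.13 (SE 0.67, adjusted p = 0.0557). Ccl5 was also called without HIRA KO library 1 before regeneration alone (adjusted p = 0.0456).

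Among CXC ligands, Cxcl14 had the smallest p-value in both genotypes. It is a conserved chemokine of epithelial and stromal cells. Cxcl14 stood at 2.09, 1.29, 2.52 and 1.48 CPM in control and 1.80, 2.20, 1.09 and 1.38 CPM in HIRA KO libraries 1 to 4 before regeneration, and at 9.65, 10.4, 8.72 and 3.12 CPM and 6.57, 7.68, 9.67 and 5.79 CPM after it. The lowest library after regeneration, control library 4, was still above the highest before it. Its log2 fold change was 2.10 (SE 0.33, adjusted p = 0.000979) in control livers and 2.19 (SE 0.34, adjusted p = 0.000709) in HIRA KO livers, that is 4.29-fold and 4.58-fold higher, and the call was kept with each library left out in turn. The HIRA KO value without libraries 1 and 2 was 2.64 (SE 0.55, adjusted p = 0.0123).

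Cxcl9 was called in HIRA KO livers, and Cxcl12, the most abundant of these genes, fell there. Before regeneration Cxcl9 measured 19.7, 16.9, 24.4 and 18.9 CPM in control and 22.0, 17.2, 11.4 and 12.0 CPM in HIRA KO libraries 1 to 4, and afterwards 27.0, 21.6, 24.4 and 27.6 CPM and 25.9, 30.3, 22.8 and 22.1 CPM. In HIRA KO livers every library after regeneration was above every library before it, by a small margin between library 1 before and library 4 after. For Cxcl9 the log2 fold change was 0.69 (SE 0.18, adjusted p = 0.0196) in HIRA KO livers and 0.33 (SE 0.18, adjusted p = 0.286) in control livers. In libraries 1 to 4 Cxcl12 was at 340, 292, 447 and 325 CPM in control and 426, 468, 443 and 368 CPM in HIRA KO livers before regeneration, and at 315, 318, 304 and 246 CPM and 329, 348, 259 and 289 CPM after it. HIRA KO livers had no overlap, with a log2 fold change of -0.48 (SE 0.15, adjusted p = 0.0424), while control livers overlapped, at -0.25 (SE 0.15, adjusted p = 0.333). For neither gene did the difference between the genotypes pass the test, with adjusted p of 0.819 for Cxcl9 and 0.865 for Cxcl12.

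The calls of Cxcl9 and Cxcl12 were fragile when 1 library was left out, though the log2 fold changes kept their direction. That of Cxcl9 was lost without HIRA KO library 3 or 4 before regeneration or 2 after it, with adjusted p between 0.0583 and 0.0649. That of Cxcl12 was kept only without HIRA KO library 2 after regeneration (adjusted p = 0.038) and lost without any other, with adjusted p between 0.0502 and 0.123. Without HIRA KO libraries 1 and 2 together, Cxcl9 stayed past the threshold, at 0.94 (SE 0.17, adjusted p = 0.00266), and Cxcl12 did not, at -0.56 (SE 0.19, adjusted p = 0.0732).

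The 3 ligands of Cxcr2 did not pass the test. The level of Cxcl1 before regeneration was 11.8, 58.5, 29.5 and 8.94 CPM in control and 70.5, 52.7, 23.7 and 17.5 CPM in HIRA KO libraries 1 to 4, and after regeneration it was 35.0, 18.5, 13.5 and 11.8 CPM and 7.43, 25.4, 21.2 and 11.4 CPM. Cxcl1 varied by several fold within each group before regeneration, and the groups overlapped in both genotypes, with log2 fold changes of -0.47 (SE 0.65, adjusted p = 0.745) and -1.33 (SE 0.65, adjusted p = 0.213) in control and HIRA KO livers. In HIRA KO livers the value of Cxcl1 without libraries 1 and 2 was -0.33 (SE 0.91, adjusted p = 0.883). In control livers the log2 value of Cxcl1 turned to 0.23 without control library 2 before regeneration. Cxcl2 gave 0.43 (SE 1.09, adjusted p = 0.876) and -0.19 (SE 0.92, adjusted p = 0.923), the latter turning to 1.17 (SE 1.08, adjusted p = 0.553) without the pair. Cxcl5 gave 1.20 (SE 2.42, adjusted p = 0.838) and -4.79 (SE 1.67, adjusted p = 0.0809), the second value resting on 1 library that is described with the HIRA KO comparison. Cxcl16, a membrane-bound ligand of Cxcr6, gave -0.04 (SE 0.18, adjusted p = 0.937) and 0.10 (SE 0.17, adjusted p = 0.773), and Cxcl13, the B cell chemokine, 0.34 (SE 0.69, adjusted p = 0.839) and 1.17 (SE 0.71, adjusted p = 0.319). Cxcl11, an interferon-induced ligand of Cxcr3 that mm10 annotation lists as a polymorphic pseudogene and that overlaps Art3, gave 0.41 (SE 0.25, adjusted p = 0.344) and 0.41 (SE 0.25, adjusted p = 0.318), or 0.73 (SE 0.36, adjusted p = 0.223) in HIRA KO livers without the pair.

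**Figure D1:**
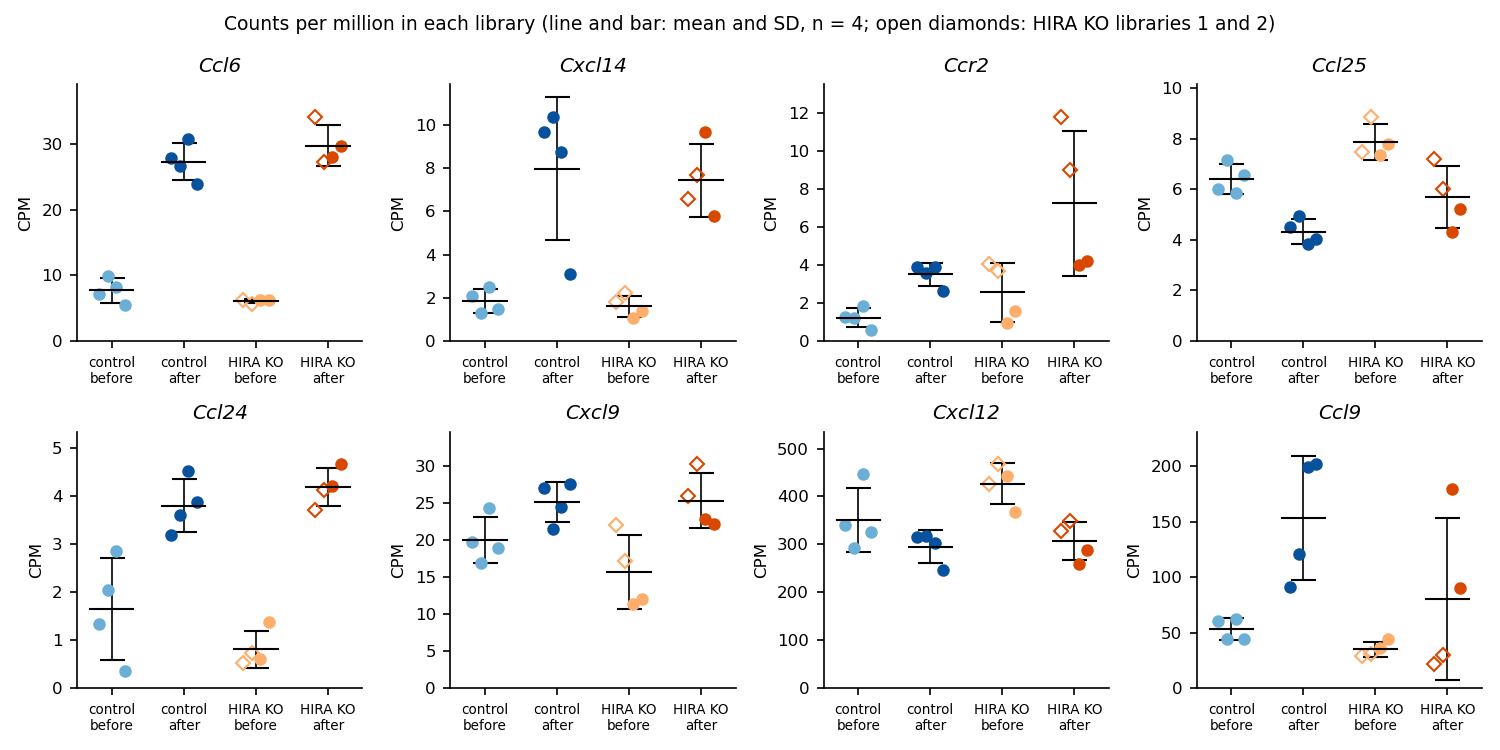
CPM of 8 members in each of the 16 libraries by group. Lines and bars are the mean and SD of 4 libraries, with bars cut at 0 where they would pass below it, and open diamonds are HIRA KO libraries 1 and 2. Ccl6 lies between 5.50 and 9.90 CPM before regeneration and between 24.0 and 34.2 CPM after it, and Ccl9 lies at 21.8 and 30.1 CPM in HIRA KO libraries 1 and 2 after regeneration.

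Of the 17 receptors, 2 were called in control livers and 1 in HIRA KO livers, all higher after regeneration. Ccr2, the receptor by which monocytes leave the marrow for tissue, was called in both. Ccr2 stood at 1.24, 1.24, 1.83 and 0.592 CPM in control and 4.07, 3.67, 0.952 and 1.57 CPM in HIRA KO libraries 1 to 4 before regeneration, and at 3.88, 3.61, 3.92 and 2.64 CPM and 11.8, 9.01, 3.98 and 4.23 CPM after it. Control libraries did not overlap, and in HIRA KO livers libraries 1 and 2 were the highest at each time. The log2 fold change was 1.51 (SE 0.46, adjusted p = 0.0493) in control livers and 1.49 (SE 0.44, adjusted p = 0.0368) in HIRA KO livers. With 1 library left out, the call in control livers was kept in 1 of 8 cases, without control library 3 before regeneration, and otherwise the adjusted p ran from 0.0718 to 0.136. The HIRA KO call was lost without library 3 or 4 before or 1 or 2 after regeneration, with adjusted p between 0.0804 and 0.103. Without HIRA KO libraries 1 and 2 together both calls stood, at 1.51 (SE 0.27, adjusted p = 0.0013) in control and 1.69 (SE 0.39, adjusted p = 0.0122) in HIRA KO livers.

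Ccr3, the eosinophil receptor for Ccl24, was called in control livers on very few counts. It had 0 counts in the 4 libraries before regeneration and 8 counts in all in the 4 after it. With 3 counts over the group put in place of 0 as the floor, it was 2.68-fold higher. Without control library 4 after regeneration, which held 4 of the 8, it was 1.88-fold higher. Such folds take the counts of the other group as exact and are not lower limits. HIRA KO livers had 1 count before regeneration, and the comparison was not called (adjusted p = 0.0649), though it was without HIRA KO library 4 before regeneration (adjusted p = 0.0485). The control call was lost without any library before regeneration or without control library 2 or 4 after it, with adjusted p between 0.055 and 0.0946, and DESeq2 gave no adjusted p for this gene.

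The other 15 receptors did not pass. Cxcr2, the neutrophil receptor, gave log2 fold changes of 1.15 (SE 0.54, adjusted p = 0.204) in control and 0.14 (SE 0.51, adjusted p = 0.896) in HIRA KO livers. Ccr1, the receptor of Ccl6 and Ccl9, gave 0.87 (SE 0.69, adjusted p = 0.504) and 1.54 (SE 0.66, adjusted p = 0.139). Cx3cr1, carried by patrolling monocytes, gave 0.65 (SE 0.60, adjusted p = 0.575) and 0.50 (SE 0.54, adjusted p = 0.605), and Cxcr4, the Cxcl12 receptor, -0.34 (SE 0.58, adjusted p = 0.801) and -0.53 (SE 0.53, adjusted p = 0.577). With libraries 1 and 2 left out the value of Cxcr4 in HIRA KO livers turned to 0.14 (SE 0.48, adjusted p = 0.906), and that of Cxcr2 was 0.07 (SE 0.65, adjusted p = 0.962). For Cxcr3, Cxcr5, Cxcr6, Ccr7 and Xcr1, receptors of T cells, B cells and dendritic cells, the log2 values lay between -0.48 and 0.56 over both genotypes, and without the pair those in HIRA KO livers lay between -0.04 and 1.19.

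The 20 members with a mean below 0.5 CPM were Ccl3, Ccl4, Ccl7, Ccl8, Ccl11, Ccl12, Ccl19, Ccl20, Ccl22, Ccl28, Xcl1, Cxcl17, Ccr1l1, Ccr3, Ccr4, Ccr6, Ccr9, Ccr10, Cxcr1 and Cxcr5. Of these, Ccr3 alone was called in any comparison with all libraries. For Ccl3 and Ccl4, ligands made by macrophages, the log2 fold changes with regeneration were -0.14 (SE 0.51, adjusted p = 0.913) and -0.06 (SE 0.47, adjusted p = 0.97) in control livers, and 1.16 (SE 0.52, adjusted p = 0.156) and -0.58 (SE 0.47, adjusted p = 0.472) in HIRA KO livers, where they were 2.16 (SE 0.81, adjusted p = 0.106) and -0.06 (SE 0.74, adjusted p = 0.976) without the pair. Ccr6, the receptor of Ccl20, had 0 counts in controls before regeneration and 8 after it (2.68-fold higher with the same floor). Ccr1l1 and Ccr4 had 0 counts in HIRA KO livers before it and 7 and 5 after it (1.8-fold and 1.29-fold higher). For Ccr6 the fold was 1.88 without control library 4 after regeneration. Ccr4 was left with 3 counts without HIRA KO library 1 after regeneration, at the floor, which gives no fold. At these counts smaller differences were not detectable.

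**Figure D2:**
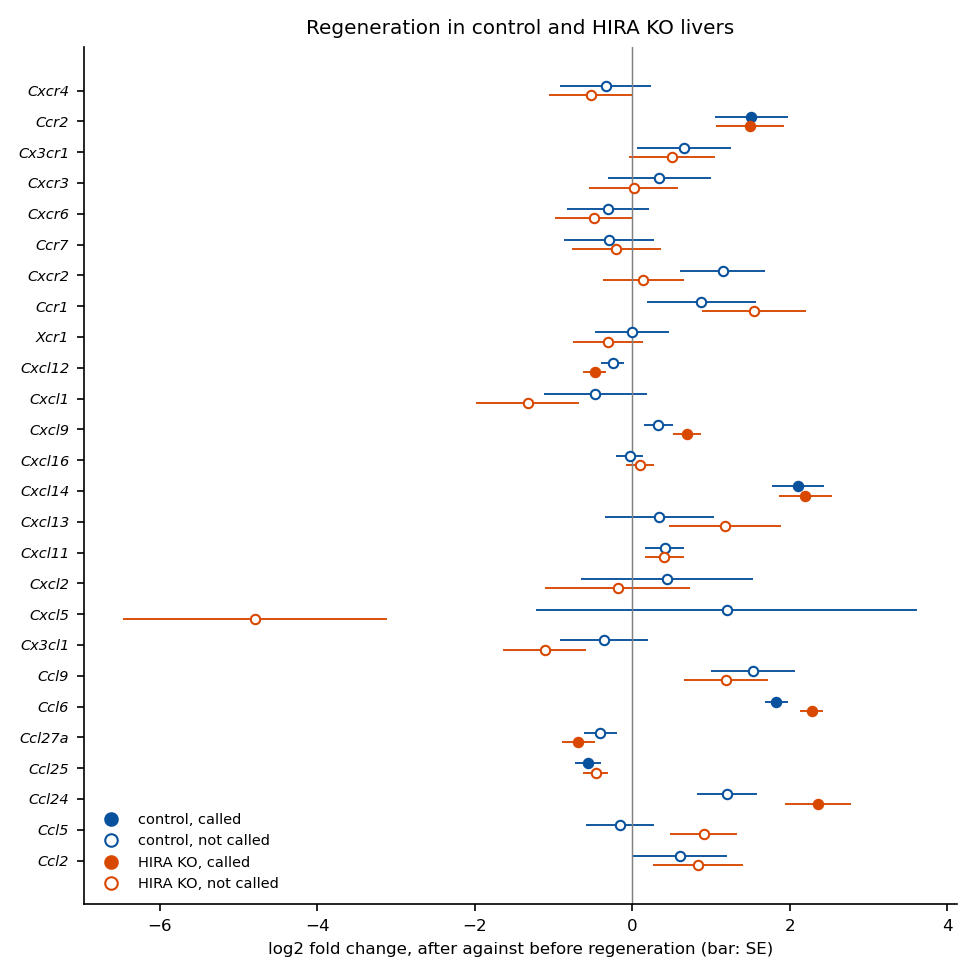
Log2 fold change after against before regeneration of the 26 members with a mean of at least 0.5 CPM, in control (blue) and HIRA KO (orange) livers. Points are the edgeR estimates, bars their SE, and filled points were called. Ccl6, Cxcl14 and Ccr2 are filled in both genotypes, and Cxcl5 has a log2 value of -4.79 in HIRA KO livers.

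Markers of macrophages, and of some other cell types, moved in the same direction as the genes called higher. All 8 Kupffer cell markers were measured in every library, and their summed level was 259 to 673 CPM in control and 427 to 491 CPM in HIRA KO livers before regeneration, and 715 to 1015 CPM and 824 to 1166 CPM after it. In each genotype 7 of the 8 were called higher, all but C6. Of 9 markers of monocytes and infiltrating macrophages, 6 were called higher in each genotype and none was at 0 in any library, and their sum was 31.1 to 70.1 CPM and 44.5 to 93.5 CPM before regeneration against 98.5 to 130 CPM and 138 to 182 CPM after it. Neutrophil markers, of which Ly6g and Camp were at 0 in 8 libraries each, summed to between 3.38 and 13.3 CPM before and between 12.4 and 29.0 CPM after regeneration, with 2 of 9 called higher in control and 3 of 9 in HIRA KO livers. In control livers the sum of B cell markers rose without overlap too, from between 2.26 and 5.37 CPM to between 6.02 and 8.94 CPM. That of mesothelial markers rose from between 0.377 and 3.49 CPM to between 3.63 and 6.21 CPM. Both overlapped between the times in HIRA KO livers. Stellate cell and fibroblast sums (228 to 257 CPM, then 188 to 424 CPM in control livers) and those of the remaining cell types overlapped in both genotypes. The part of any of these cells in the rise of Ccl6, Cxcl14 and Ccr2 was not tested.

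Of 39 other genes of the pathway (atypical receptors, platelet chemokines, signalling proteins downstream of the receptors, and the NF-kB and cytokine genes that induce chemokines), 37 were tested. In control livers 6 of the 37 were called higher after regeneration and 0 lower, beside 10.2% of all genes called in either direction. The 6 were Rac2 (log2 fold change 1.39, adjusted p = 0.000463), Relb (1.32, adjusted p = 0.00377), Vav1 (1.24, adjusted p = 0.00539), Dock2 (1.09, adjusted p = 0.00834), Elmo1 (0.91, adjusted p = 0.0142) and Gnai2 (0.46, adjusted p = 0.00454). HIRA KO livers had 5 of the 37 called higher and 0 lower, near the 12.0% of all genes called in either direction. The 5 were Rac2 (1.52, adjusted p = 0.000224), Vav1 (1.10, adjusted p = 0.00994), Dock2 (1.08, adjusted p = 0.00858), Arrb2 (0.69, adjusted p = 0.00501) and Gnai2 (0.65, adjusted p = 0.000495). Dock2, Elmo1, Rac2 and Vav1 link the receptors to the actin skeleton in blood cells, Gnai2 is the G protein subunit the receptors couple to, Arrb2 is an arrestin that binds them after activation, and Relb is an NF-kB subunit. The median log2 fold change of the 37 was 0.24 in control and 0.14 in HIRA KO livers, beside 0.0029 and 0.02 over all genes.

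The comparison of HIRA KO with control livers before regeneration concerns resting liver. None of the 46 members was called, where 9 of all genes were (0.0391%). DESeq2 called 0 members too, beside 375 of all genes (1.63%). At an unadjusted p under 0.05, 11 of 46 members passed in edgeR beside 13.2% of all genes. In 33 of 46 the log2 fold change was above 0 and the median was 0.49, beside 51.0% and 0.01 over all genes. Without HIRA KO libraries 1 and 2 it was above 0 in 16 of 46, the median was -0.27, and 4 had an unadjusted p under 0.05. The values over all genes without the pair are not given, so this shift cannot be set against them.

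Of the 17 receptors, 15 had a log2 fold change above 0 before regeneration, beside 51.0% of all genes, and 8 without that pair of libraries. Cxcr4, Cx3cr1, Ccr2, Cxcr3 and Ccr6 were those with an unadjusted p under 0.05. Before regeneration Cxcr4 measured 1.64, 1.45, 1.09 and 0.83 CPM in control and 5.66, 5.00, 1.63 and 0.752 CPM in HIRA KO libraries 1 to 4, and afterwards 0.564, 1.26, 1.47 and 0.672 CPM and 2.13, 4.31, 1.28 and 1.34 CPM. HIRA KO libraries 1 and 2 before regeneration were the 2 highest of all 16, and libraries 3 and 4 lay below the highest control. Cxcr4 had a log2 fold change of 1.38 (SE 0.55, adjusted p = 0.314), and -0.09 (SE 0.43, adjusted p = 0.993) without the pair. In libraries 1 to 4 Cx3cr1 was at 0.647, 0.377, 1.49 and 0.947 CPM in control and 4.23, 2.60, 0.952 and 0.877 CPM in HIRA KO livers before regeneration, and at 2.07, 1.49, 1.14 and 0.768 CPM and 5.71, 3.64, 1.66 and 1.34 CPM after it. For Cx3cr1 too the pair lay above the other 6 libraries of that time, and the log2 value was 1.34 (SE 0.59, adjusted p = 0.349), and 0.09 (SE 0.48, adjusted p = 0.993) without the pair. For Ccr2, whose values are given above, these were 1.07 (SE 0.47, adjusted p = 0.349) and 0.04 (SE 0.37, adjusted p = 0.994), and for Cxcr3, the receptor of activated T cells, 1.32 (SE 0.62, adjusted p = 0.373) and 0.52 (SE 0.68, adjusted p = 0.937). Ccr6 had 0 counts in controls and 8 in HIRA KO livers before regeneration, which was 3.02-fold higher with the floor of 3 counts over the group. Of these 8 counts 2 were in library 1 and 5 in library 2, and the 3 left without library 2, or the 1 left without the pair, give no fold.

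Several ligands were highest in HIRA KO library 1. The level of Cxcl5 before regeneration was 0, 0.108, 0.114 and 0 CPM in control and 12.1, 0.133, 0 and 0 CPM in HIRA KO libraries 1 to 4, and after regeneration it was 0.0626, 0.0573, 0.0545 and 0.336 CPM and 0.0453, 0.311, 0.0474 and 0 CPM. Cxcl5, a neutrophil chemokine of epithelial cells, had 229 counts in that library and at most 7 in any other. Its log2 fold change was 5.66 (SE 1.86, adjusted p = 0.252), and -0.28 without that library. Cx3cl1 stood at 1.54, 1.29, 1.14 and 1.18 CPM in control and 7.83, 2.47, 0.952 and 1.32 CPM in HIRA KO libraries 1 to 4 before regeneration, and at 1.57, 1.38, 0.491 and 0.624 CPM and 2.04, 1.47, 1.04 and 1.28 CPM after it. Cx3cl1, or fractalkine, was 7.83 CPM in the same library and gave 1.29 (SE 0.53, adjusted p = 0.322), and -0.19 (SE 0.41, adjusted p = 0.968) without libraries 1 and 2. Ccl20, the ligand of Ccr6, had 22 of its 29 counts in that library and 0 counts in controls before regeneration. With the same floor it was 8.68-fold higher in HIRA KO livers. Without that library 1 count was left, and no fold can be given. Ccl28 was at 2.28 CPM there against at most 0.651 CPM elsewhere.

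Cxcl2 was high in both libraries of the pair. Before regeneration Cxcl2 measured 0.298, 0.538, 0.172 and 0.0592 CPM in control and 1.27, 2.13, 0.136 and 0.0626 CPM in HIRA KO libraries 1 to 4, and afterwards 0.689, 0.459, 0.164 and 0.192 CPM and 0.317, 2.35, 0.285 and 0.167 CPM. Its log2 fold change before regeneration was 1.72 (SE 1.02, adjusted p = 0.498) and turned to -1.41 (SE 0.95, adjusted p = 0.876) without the pair. Ccl2 gave 0.67 (SE 0.60, adjusted p = 0.676) and -1.02 (SE 0.45, adjusted p = 0.761). In libraries 1 to 4 Ccl2 was at 1.49, 1.94, 1.14 and 1.01 CPM in control and 3.07, 4.47, 0.884 and 0.501 CPM in HIRA KO livers before regeneration, and at 2.19, 3.27, 1.09 and 1.97 CPM and 2.99, 8.26, 2.13 and 2.50 CPM after it. Libraries 1 and 2 were the highest of the 8 before regeneration and libraries 3 and 4 the lowest.

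Marker sums of several other cell types were also higher in these 2 libraries before regeneration, and those of others were not. The 8 markers of stellate cells and fibroblasts, none at 0 in any library, summed to 624 and 493 CPM in HIRA KO libraries 1 and 2 before regeneration, against 258 and 272 CPM in libraries 3 and 4 and 228 to 257 CPM in controls. The 7 cholangiocyte markers, with Cftr at 0 in 4 libraries, summed to 167 and 119 CPM in the pair and to between 69.4 and 98.6 CPM in the other 6. B cell markers summed to 11.9 and 7.60 CPM against 2.26 to 5.37 CPM, those of dendritic cells to 25.2 and 27.5 CPM against 15.9 to 18.7 CPM, and those of monocytes and infiltrating macrophages to 93.5 and 75.7 CPM against 31.1 to 70.1 CPM. Mesothelial markers reached 13.9 CPM in library 1 alone, against at most 3.49 CPM in the others. T cell markers summed to 8.89 and 7.20 CPM against at most 7.15 CPM, those of NK cells to 3.12 and 2.80 CPM against at most 2.75 CPM, and those of neutrophils to 11.0 and 13.3 CPM against at most 10.3 CPM. Both libraries lay above the other 6 for 8 of 8 stellate cell, 5 of 8 B cell, 4 of 7 cholangiocyte and 4 of 8 dendritic cell markers. They did so for 4 of 9 monocyte and macrophage, 4 of 9 T cell, 3 of 9 neutrophil and 2 of 8 NK cell markers. The rest of these markers were not above in both libraries, and 0 were below in both. Lyz2 alone held 70.2 and 60.8 CPM of the monocyte and macrophage sums. The sums of Kupffer cell markers (427 and 491 CPM against 259 to 673 CPM), endothelial markers (258 and 297 CPM against 235 to 320 CPM), plasma cell and platelet markers lay within the range of the other 6. Single markers of these lists did not all do so. Jchain (74.8 and 14.7 CPM against 0.710 to 2.92 CPM) and Mzb1 (2.59 and 0.600 CPM against 0.0592 to 0.484 CPM), of plasma cells, lay above the other 6. The plasma cell markers Sdc1 and Xbp1, at far higher levels, lay within their range. Of the endothelial markers, Lyve1 lay above the other 6, and Clec4g and Vwf below. After regeneration the pair's sums of monocyte and infiltrating macrophage markers were 182 and 153 CPM against 98.5 to 147 CPM, with 5 of 9 markers above and 1 below. Sums of dendritic cell (22.1 and 28.1 CPM against 14.0 to 19.7 CPM), B cell and endothelial markers also lay above the other 6. Those of the remaining cell types did not, stellate cells included (502 and 387 CPM against 188 to 424 CPM). The part of these cells in the values of the chemokine genes was not tested.

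A smaller number of members had lower values in HIRA KO livers before regeneration. Ccl9 was lower in all 4 HIRA KO libraries than in all 4 controls, by a very small margin between library 4 of each (44.0 and 44.2 CPM). Its log2 fold change was -0.59 (SE 0.53, adjusted p = 0.679), and -0.40 (SE 0.39, adjusted p = 0.916) without the pair. Ccl24 gave -1.02 (SE 0.42, adjusted p = 0.323) and -0.72 (SE 0.58, adjusted p = 0.892), and Ccl6 -0.33 (SE 0.15, adjusted p = 0.354) and -0.30 (SE 0.19, adjusted p = 0.862). Cxcl13 gave -0.63 (SE 0.72, adjusted p = 0.757) and -0.06 (SE 0.70, adjusted p = 0.999), and Cxcl9 gave -0.35 (SE 0.18, adjusted p = 0.42) with all libraries and -0.77 (SE 0.15, adjusted p = 0.13) without the pair, where libraries 3 and 4 had 11.4 and 12.0 CPM beside 16.9 to 24.4 CPM in controls. In that setting Cxcl9 was the 1 member of 46 that DESeq2 called, with a log2 fold change of -0.75 (adjusted p = 0.0124) in DESeq2, beside 0.274% of all genes. Ccl25 was higher in all 4 HIRA KO libraries than in all 4 controls, with a log2 fold change of 0.30 (SE 0.16, adjusted p = 0.437).

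**Figure D3:**
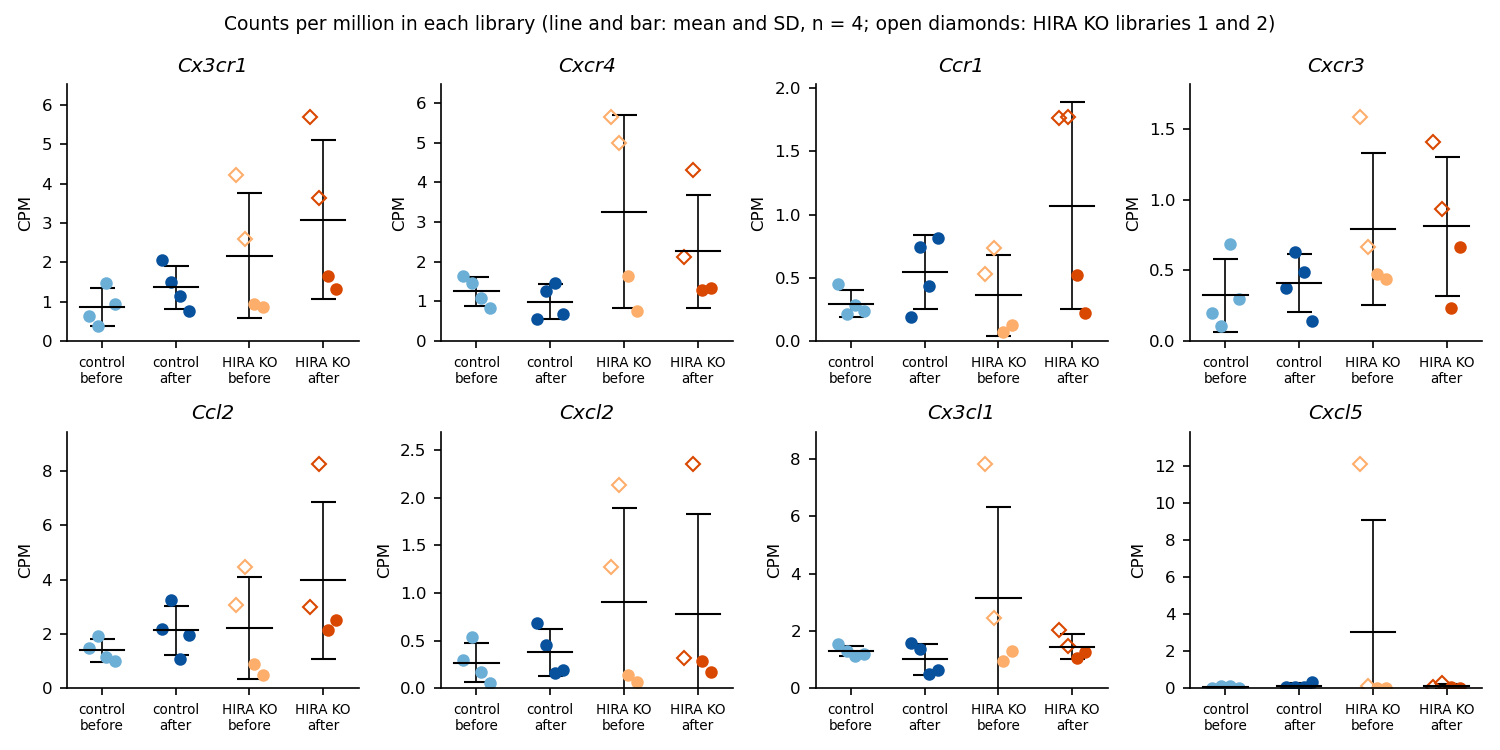
CPM of 8 members in each library by group. Lines and bars are the mean and SD of 4 libraries, with bars cut at 0, and open diamonds are HIRA KO libraries 1 and 2. Both diamonds lie above the other libraries of their time point for Cx3cr1 and Cxcr4, and for Cxcl5 HIRA KO library 1 before regeneration lies at 12.1 CPM and all others at or below 0.336 CPM.

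After regeneration, none of the 46 members was called between HIRA KO and control either, where 113 of all genes were (0.491%). DESeq2 called 0 members and 910 of all genes (3.95%). At an unadjusted p under 0.05, 4 of 46 passed in edgeR (Ccl25, Cxcl16, Ccr2 and Cx3cr1), beside 15.8% of all genes. The log2 fold change was above 0 in 33 of 46, with a median of 0.36, beside 52.2% and 0.02 over all genes. Without HIRA KO libraries 1 and 2 it was above 0 in 24 of 46, with a median of 0.10. The values over all genes without the pair are not given.

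Cxcl16 had the smallest p-value of the 46. The level of Cxcl16 before regeneration was 7.16, 6.72, 10.2 and 6.81 CPM in control and 12.0, 11.2, 8.09 and 8.71 CPM in HIRA KO libraries 1 to 4, and after regeneration it was 7.83, 8.54, 7.09 and 6.67 CPM and 11.2, 13.1, 9.86 and 8.63 CPM. After regeneration every HIRA KO library was above every control library, by a small margin, with a log2 fold change of 0.51 (SE 0.17, adjusted p = 0.165), and 0.30 (SE 0.18, adjusted p = 0.607) without the pair. Cxcl16 shares 552 bases with Zmynd15 on the opposite strand. Ccr2 also had no overlap between the genotypes after regeneration, with HIRA KO libraries 3 and 4 at 3.98 and 4.23 CPM just above the highest control at 3.92 CPM, and gave 1.05 (SE 0.43, adjusted p = 0.242), and 0.23 (SE 0.30, adjusted p = 0.859) without the pair. Cx3cr1 gave 1.19 (SE 0.56, adjusted p = 0.317) and Cxcr4 1.19 (SE 0.56, adjusted p = 0.318), and without the pair these were 0.15 (SE 0.43, adjusted p = 0.948) and 0.39 (SE 0.41, adjusted p = 0.8). For Ccl25 they were 0.40 (SE 0.16, adjusted p = 0.235) and 0.14 (SE 0.18, adjusted p = 0.851).

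Ccl9 went the other way in the pair. HIRA KO libraries 1 and 2 after regeneration held 21.8 and 30.1 CPM, and the other 6 libraries of that time 90.6 to 202 CPM, while the neighbouring Ccl6 held 34.2 and 27.2 CPM in the same libraries beside 24.0 to 30.8 CPM in the other 6. The log2 fold change of Ccl9 between HIRA KO and control was -0.93 (SE 0.53, adjusted p = 0.422), and -0.18 (SE 0.38, adjusted p = 0.927) without the pair. Kupffer cell markers summed to 901 and 824 CPM in these libraries, within the 715 to 1166 CPM of the other 6, with C6 alone at 294 and 303 CPM. Of the 8 markers 3 lay below all of the other 6 libraries in the pair, namely Clec4f (127 and 111 CPM against 141 to 213 CPM), Timd4 (9.06 and 7.46 CPM against 12.2 to 20.5 CPM) and Folr2 (7.48 and 5.82 CPM against 8.98 to 15.6 CPM), and their part in the value of Ccl9 was not tested. Ccr1, the receptor of Ccl9, was at 1.77 and 1.78 CPM in them and at most 0.816 CPM in the others.

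Ccl5 stood at 1.34, 1.34, 1.32 and 1.36 CPM in control and 2.12, 1.53, 0.612 and 0.376 CPM in HIRA KO libraries 1 to 4 before regeneration, and at 1.06, 1.15, 1.58 and 1.01 CPM and 1.50, 2.09, 1.33 and 3.95 CPM after it. Ccl5 after regeneration gave a log2 fold change between HIRA KO and control of 0.87 (SE 0.42, adjusted p = 0.324), and 1.12 (SE 0.36, adjusted p = 0.253) without the pair, with the groups overlapping. Ccl2 gave 0.90 (SE 0.58, adjusted p = 0.479), and 0.12 (SE 0.36, adjusted p = 0.951) without the pair, of which library 2 was at 8.26 CPM. Cxcl1 gave -0.26 (SE 0.65, adjusted p = 0.888), and Cxcl12, Cxcl9 and Cxcl14 had log2 values of 0.05, 0.01 and -0.10, or -0.11, -0.16 and -0.03 without the pair.

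**Figure D4:**
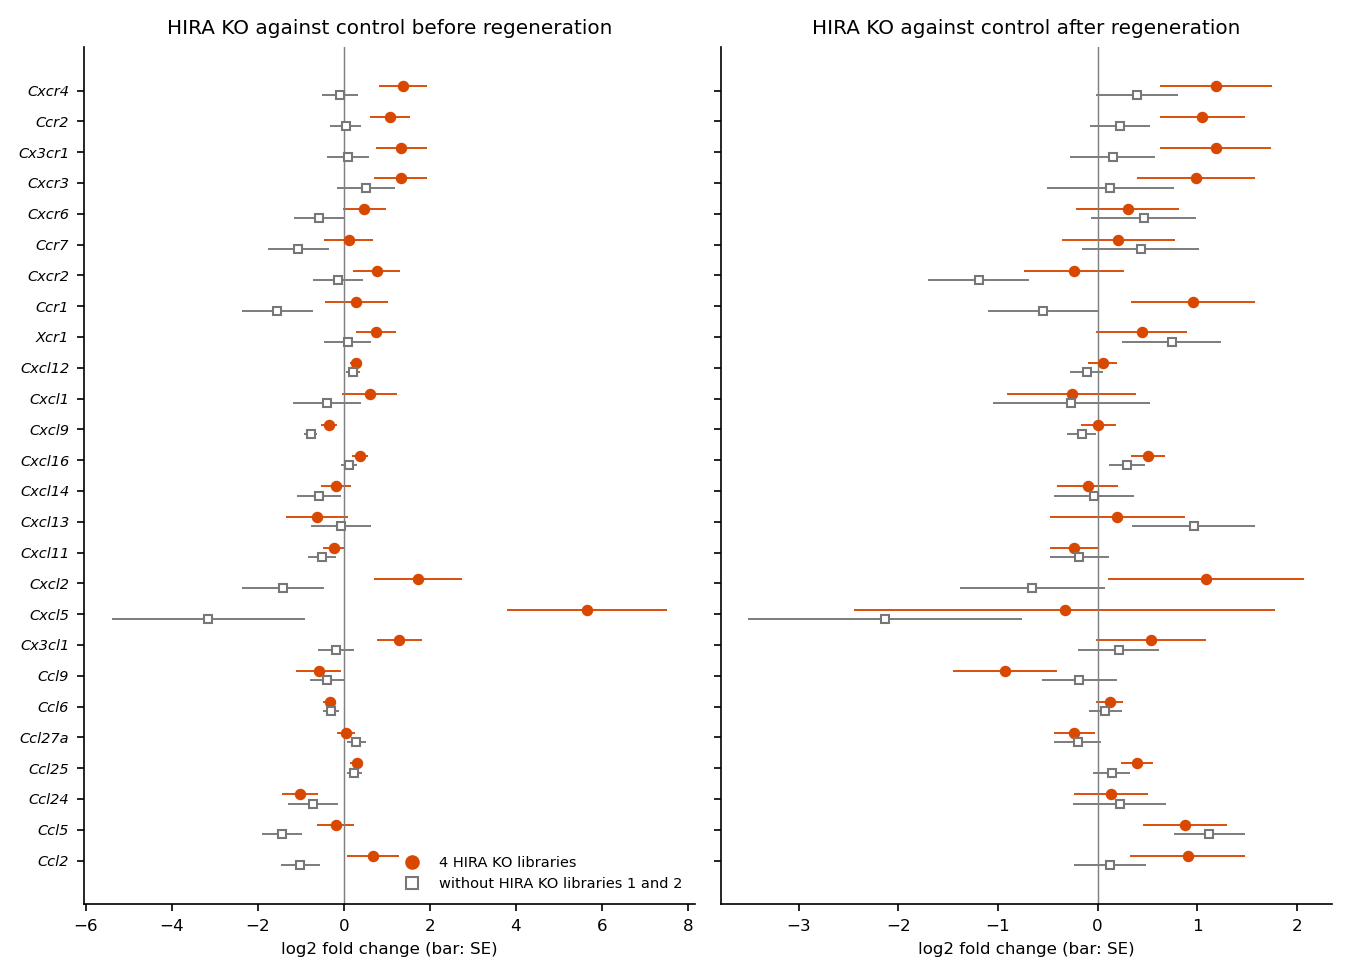
Log2 fold change of HIRA KO against control before (left) and after (right) regeneration for the 26 members with a mean of at least 0.5 CPM. Orange points use all 4 HIRA KO libraries, grey squares leave out HIRA KO libraries 1 and 2, and bars are SE. Cxcr4 before regeneration lies at 1.38 with all libraries and at -0.09 without the pair.

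An interaction term tested whether loss of HIRA had a different effect at the 2 times. None of the 46 members was called, nor was any gene (0.0%), and at an unadjusted p under 0.05 there were 3 of 46 (Ccl6, Ccr1l1 and Ccr6) beside 6.81% of all genes. DESeq2 called 0 members and 67 of all genes (0.291%). The log2 difference of Ccl6 was 0.45 (SE 0.20, adjusted p = 0.702), and that of Ccl5 1.07 (SE 0.60, adjusted p = 0.766), or 2.56 (SE 0.59, adjusted p = 0.302) without the pair. For Ccr2 and Cxcl14 the log2 differences were -0.02 (SE 0.54) and 0.09 (SE 0.46). None of the 37 other pathway genes was called in this test or between HIRA KO and control at either time, with median log2 values of 0.14 before and 0.10 after regeneration, and -0.03 and -0.01 without the pair.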

How the data were processed

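Poly-A RNA from whole liver was sequenced. The authors aligned reads to mm10 with STAR and counted them per gene, with HOMER by the methods, while the processing notes also name HTSeq and Cufflinks. The methods state the versions of STAR and DESeq2, while those of the counting tools, the annotation and the strand setting are not given in the sources used here. The deposited counts are raw, and the deposited FPKM values were scaled by the authors for length and depth (empty cells were read as 0). Counts of the 23018 genes with at least 10 in total were fitted in edgeR 4.0.16 (robust quasi-likelihood, TMM, 4 group means, R 4.3.3), with Benjamini-Hochberg adjustment over all of them and calls at 0.05. DESeq2 1.42.0, the tool the authors used, was the alternative. CPM used TMM-scaled totals, and SE is the log2 fold change over the root of F. The fit was also run on simulated independent libraries with the same dispersion for every gene, for HIRA KO against control before regeneration alone. That run held neither paired samples nor a split between HIRA KO libraries, and no result rests on it. Alternatives were scaling, filters, tool, the groups fitted, and left-out libraries. DESeq2 without the libraries apart was added after seeing the data. Named members were those called, the 3 with the largest fold change each way per comparison at a mean of at least 0.5 CPM, the 5 ligands and 5 receptors highest in FPKM, and well-known liver and leukocyte members. Others (Ccl3, Ccl4, Ccl7, Ccl20, Ccl28, Cxcl11, Ccr1l1, Ccr4, Ccr6) were named after their values were seen. The members and lists were chosen with earlier results of these data known. Some genes with such names, and a marker, are not reported here, but stayed in every fit.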

Additional observations from a re-analysis of the deposited data

Results flagged for a closer look

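Each of the 28 members named by rule was examined in each group of 4 libraries, 112 groups in all, for a highest or lowest library that stood far from the other 3 by Dixon's 95% criterion. There were 10 such libraries. Chance gives about 1 in 20 groups for normally spread values. That rate does not hold for members at 0 or few counts, such as Ccr3 and Cxcl5. A single count beside 0 in the other libraries always meets the criterion. In HIRA KO livers before regeneration, Cxcl5 was at 12.1 CPM in library 1 and at 0 to 0.133 CPM in the others, Ccl6 was at 5.67 CPM in library 2 and at 6.25 to 6.33 CPM in the others, and Ccr3 was at 0.0626 CPM, 1 count, in library 4 and at 0 in the others. In HIRA KO livers after regeneration, library 2 was high for Ccl2 (8.26 CPM against 2.13 to 2.99 CPM), Cxcl2 (2.35 CPM against 0.167 to 0.317 CPM) and Cxcl5 (0.311 CPM against 0 to 0.0474 CPM), and library 4 was high for Xcr1 (1.28 CPM against 0.589 to 0.664 CPM). In control livers, Cxcl16 was at 10.2 CPM in library 3 before regeneration against 6.72 to 7.16 CPM, Ccr7 was at 0.927 CPM in library 3 after regeneration against 0.240 to 0.344 CPM, and Cxcl5 was at 0.336 CPM in library 4 after regeneration against 0.0545 to 0.0626 CPM.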

How the results depend on the processing

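No paired analysis was possible because the deposited columns carry a group and a running number that no label ties to a mouse, and for the same reason a term for the deletion approach was not run. With 2 HIRA KO libraries per time left out, the other 2 carry the spread of their group. The count of members called with regeneration in control livers was 2 with no count filter and ran from 2 to 5 with 1 library left out. In HIRA KO livers it was 4 with no count filter, 3 when only the groups compared were fitted, 11 (beside 12.5% of all genes) with DESeq2 without HIRA KO libraries 1 and 2, and 3 to 7 with 1 library left out. Where no share of all genes stands beside a count here, none is given. A change in such a count can therefore not be told from a change over all genes. Before regeneration DESeq2 without HIRA KO libraries 1 and 2 called 1 member between genotypes, beside 0.274% of all genes.

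Without that pair, some log2 fold changes turned direction, given here for edgeR and then DESeq2. For HIRA KO against control before regeneration they became -1.41 and -1.44 for Cxcl2, -3.15 and -2.18 for Cxcl5, and -0.089 and -0.067 for Cxcr4, and after regeneration -0.66 and -0.69 for Cxcl2. With regeneration in HIRA KO livers they became 0.027 and 0.029 for Cx3cl1 and 2.22 and 1.08 for Cxcl5. The interaction became 0.14 and 0.13 for Cxcl1, and 1.02 in edgeR for Cxcl5. None of these was called in either direction.

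With 1 library left out in turn, Cxcl5 ran from -0.28 to 6.17 in HIRA KO against control before regeneration, from -1.84 to 0.84 after it, and from -6.31 to 1.15 with regeneration in HIRA KO livers. After regeneration Cxcl1 ran from -0.56 to 0.19 and Cxcl2 from -0.50 to 1.56 between genotypes, Cxcl1 ran from -0.91 to 0.23 with regeneration in control livers, and the Cxcl13 interaction ran from -0.0018 to 1.196. For the members called in a comparison or among the largest fold changes in it, of 241 values under other settings 210 kept direction and side of the threshold, 12 lost and 4 gained a call, and 15 turned direction. Of their 336 values with 1 library left out, these numbers were 290, 38, 0 and 8, and members outside that set that gained a call this way (Ccl24 and Ccl7 in control, Ccl25, Ccl5 and Ccr3 in HIRA KO livers) are given with their values above. Members of few counts limit all of this, as do 4 libraries per group.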
